A study of Mus musculus with 7 samples.

Results

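Fgf5, Otx2, Pou3f1, Lef1, Zic2 and Foxd3 are genes whose RNA marks the primed epiblast, the state of the early post-implantation mouse embryo. They were chosen by name, as 6 of the 37131 genes of the GENCODE M1 annotation of mm9, and all 6 were among the 31484 genes with at least 200 exonic bases that could be assigned to 1 gene. The 4 RNA-seq libraries came from clones of F123, a hybrid embryonic stem (ES) cell line from a cross of Mus musculus castaneus (CAST) with a 129 strain. The wild type clone (WT, CAST+/129+) kept both copies of a distal super-enhancer of Sox2. CAST+/129- had lost the 129 copy, CAST-/129+ the CAST copy, and CAST-/129- had lost each of them. Each genotype was 1 clone and 1 library. The deletion clones had been made with a pair of Cas9 guides, puromycin selection and recovery on mouse embryonic fibroblast feeders. Whether the WT cells of the RNA-seq library went through the same steps was not given in the sources used here. F123 cells were grown on gelatin without feeders ahead of harvest. ChIP-seq of H3K4me3 and H3K27ac in undeleted F123 cells, and of H3K27ac in J1, an ES cell line of 129 background, gave the promoter marks.

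ES cells grown with LIF hold a naive state, and on the way to lineage commitment they pass through a formative and a primed state. The change is known to involve the fall of naive factors such as Klf4 and the gain of the growth factor Fgf5 and of the homeobox and POU factors Otx2 and Pou3f1 (Oct6). Otx2 is known to redirect Oct4 to other enhancers. Zic2 and Foxd3 are known to be active in ES cells and in the epiblast, so they mark the primed state less sharply than Fgf5 does. H3K4me3 marks promoters that are active or poised, and H3K27ac marks active promoters and enhancers.

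Sox2, the gene that the deleted element regulates, was at 174 FPKM in WT, 81.9 in CAST+/129-, 73.0 in CAST-/129+ and 7.39 in CAST-/129-, where FPKM is the number of distinct alignments per kilobase of exon, scaled to the alignments on genes in the library. The ES cell marker Pou5f1 was between 131 and 207 FPKM in the 4 libraries. Of the 7 listed ES cell markers, Sox2 included, 6 were below WT and 1 above it in CAST-/129-. Of the 13826 genes averaging 1 FPKM or more, 7831 were below WT and 5994 above it in CAST-/129-. Nanog was at 0.299 and Zfp42 at 0.282 times WT there. By the ratio of FPKM + 4, the markers past 3-fold downward were 0, 0 and 3 of 7 in CAST+/129-, CAST-/129+ and CAST-/129-. The shares of all genes tested were 0.305%, 0.327% and 0.511%. No marker was past 3-fold upward. The libraries held between 5839872 and 24883304 alignments on genes, WT being the deepest and CAST-/129- the shallowest. With 1 library per genotype there is no replicate error and no test of genotype. All intervals are exact 95% intervals (Poisson for a level, Clopper-Pearson for a ratio) that cover counting error only. They are too narrow where alignments are not independent, as with mates of 1 fragment. Between 18.7% and 22.6% of the RNA alignments had a copy of the same length shifted by 2 bases. Whether these copies are mates was not tested, and no other shift was counted. All 3 deletion clones were set against the same WT library, and in these bulk samples more cells with a transcript and more RNA per cell cannot be told apart.

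Fgf5 encodes a secreted fibroblast growth factor and is a widely used marker of the primed epiblast. It lies at chr5:98683203-98706049 on the plus strand (ENSMUSG00000029337.1). Its level was 0.129 FPKM in WT, 4.01 in CAST+/129-, 26.9 in CAST-/129+ and 24.5 in CAST-/129-, from 8, 125, 408 and 358 alignments. WT was thus close to empty, the clone deleted on the 129 allele was low, and the other two were high and alike. The ratios of the 3 deletion clones to WT, in that order, were 31.2 (15.3 to 73.8), 209 (105 to 488) and 191 (95.7 to 445). They were 52.2, 413 and 405 with reads before collapsing, and 54.0, 395 and 358 in 1 random draw that thinned the libraries to the shallowest. The 2 clones with 1 deleted allele differed from each other, with CAST-/129+ at 6.71 times CAST+/129- (5.48 to 8.27). CAST-/129- and CAST-/129+ could not be told apart, at a ratio of 0.912 (0.789 to 1.05). In WT the 8 alignments all lay in the third and last exon. In the 3 deletion clones all 3 exons were covered, at 26.6, 34.9 and 26.5 FPKM in CAST-/129+.

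Otx2, a homeobox factor of the epiblast and the anterior brain, lies at chr14:49277354-49287319 on the minus strand (ENSMUSG00000021848.9). It was at 3.19 FPKM in WT, 23.8 in CAST+/129-, 28.3 in CAST-/129+ and 15.2 in CAST-/129-, from 270, 1010, 583 and 301 alignments. All 3 deletion clones were above WT with no overlap of the intervals, and the clone deleted on both alleles was the lowest of them. The ratio to WT was 7.46 (6.52 to 8.56), 8.85 (7.65 to 10.3) and 4.75 (4.02 to 5.62) in the same order. CAST-/129- was at 0.637 times CAST+/129- (0.558 to 0.725) and at 0.536 times CAST-/129+ (0.465 to 0.618). The RNA was unevenly spread over the exons. In the 3 deletion clones the 5′-most exon block had 1.80, 7.78 and 5.39 FPKM, whereas the last block had 35.3, 45.7 and 21.2.

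Pou3f1, a POU factor that is also known from Schwann cells, is an intronless gene at chr4:124334889-124337899 on the plus strand (ENSMUSG00000078236.3). It was at 2.08 FPKM in WT, 23.6 in CAST+/129-, 25.0 in CAST-/129+ and 18.4 in CAST-/129-, from 156, 886, 457 and 324 alignments. All 3 deletion clones were above WT, with a narrower range among them than for Otx2. The ratio to WT was 11.3 (9.54 to 13.5), 12.0 (9.995 to 14.5) and 8.85 (7.29 to 10.8). With reads before collapsing it was between 14.0 and 18.1, each above its interval. The random draw of thinned libraries gave 17.9, 18.8 and 14.1, also above the intervals. That draw adds sampling error to the WT count and does not measure an effect of depth. The 2 clones with 1 deleted allele could not be told apart, at a ratio of 1.06 (0.945 to 1.19), and their order turned with all alignments as the library size, at 11.7 and 11.5 times WT. CAST-/129- was lower than either, at 0.781 times CAST+/129- (0.686 to 0.888).

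Lef1, a nuclear effector of Wnt signalling that binds DNA together with beta-catenin, lies at chr3:130813389-130927274 on the plus strand (ENSMUSG00000027985.8). It was at 0.0650 FPKM in WT, 5.35 in CAST+/129-, 6.80 in CAST-/129+ and 4.77 in CAST-/129-, from 14, 578, 357 and 241 alignments. Like Fgf5 it was near 0 in WT, but its levels in the deletion clones lay within 1.43 times of each other. The ratio to WT was 82.3 (48.7 to 152), 105 (61.5 to 193) and 73.3 (42.9 to 136). It was 126, 175 and 130 with reads before collapsing, 51.6, 69.8 and 48.2 with thinned libraries, and 53.2, 67.0 and 46.7 with both strands. These levels are understated, because the 8654 counted bases include long stretches that only non-coding transcripts of the gene use. A block of 3440 bases, most of them of this kind, had 0.862 FPKM in CAST+/129-, against 25.1 in a coding exon of 163 bases. Over exons of coding transcripts alone, a setting chosen after seeing the data, Lef1 was at 0.160, 13.2, 16.8 and 11.8 FPKM. A cassette exon of 84 bases, which some of the coding transcripts skip, held 4, 0 and 4 alignments in the 3 deletion clones, at most 8.15 FPKM. The 3 coding exons after it were between 22.8 and 48.5 FPKM in the same clones. The exon of 91 bases before it was at 12.3, 12.7 and 3.76 FPKM, in CAST-/129- lower than the cassette exon. Skipping of the cassette exon was not tested.

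Zic2, a zinc finger factor whose loss disturbs forebrain patterning, lies at chr14:122874604-122879074 on the plus strand (ENSMUSG00000061524.7). It was at 7.88 FPKM in WT, 4.50 in CAST+/129-, 6.26 in CAST-/129+ and 8.22 in CAST-/129-, from 821, 235, 159 and 201 alignments. The interval of the clone deleted on both alleles took in equality with WT, and the clones with 1 deleted allele were lower. The ratio to WT was 0.571 (0.492 to 0.661), 0.794 (0.666 to 0.942) and 1.04 (0.890 to 1.22). With the counts halved, as if every alignment had a mate, the interval for CAST-/129+ ran from 0.617 to 1.01 and took in equality. With reads before collapsing the ratio was 0.633, 1.03 and 1.42, so CAST-/129+ was no longer below WT and CAST-/129- was above the interval.

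Foxd3, a forkhead factor that ES cells and the neural crest are known to require, is an intronless gene at chr4:99322990-99325362 on the plus strand (ENSMUSG00000067261.3). It was at 9.84 FPKM in WT, 5.83 in CAST+/129-, 4.55 in CAST-/129+ and 2.70 in CAST-/129-, from 559, 166, 63 and 36 alignments. WT was the highest and the clone deleted on both alleles the lowest. The ratio to WT was 0.592 (0.495 to 0.705), 0.462 (0.350 to 0.600) and 0.274 (0.190 to 0.385). Gm12688, a non-coding transcript that starts upstream of Foxd3 on the other strand, was at 2.92, 2.86, 2.35 and 0.489 FPKM, the last from 2 alignments.

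**Figure D1:**
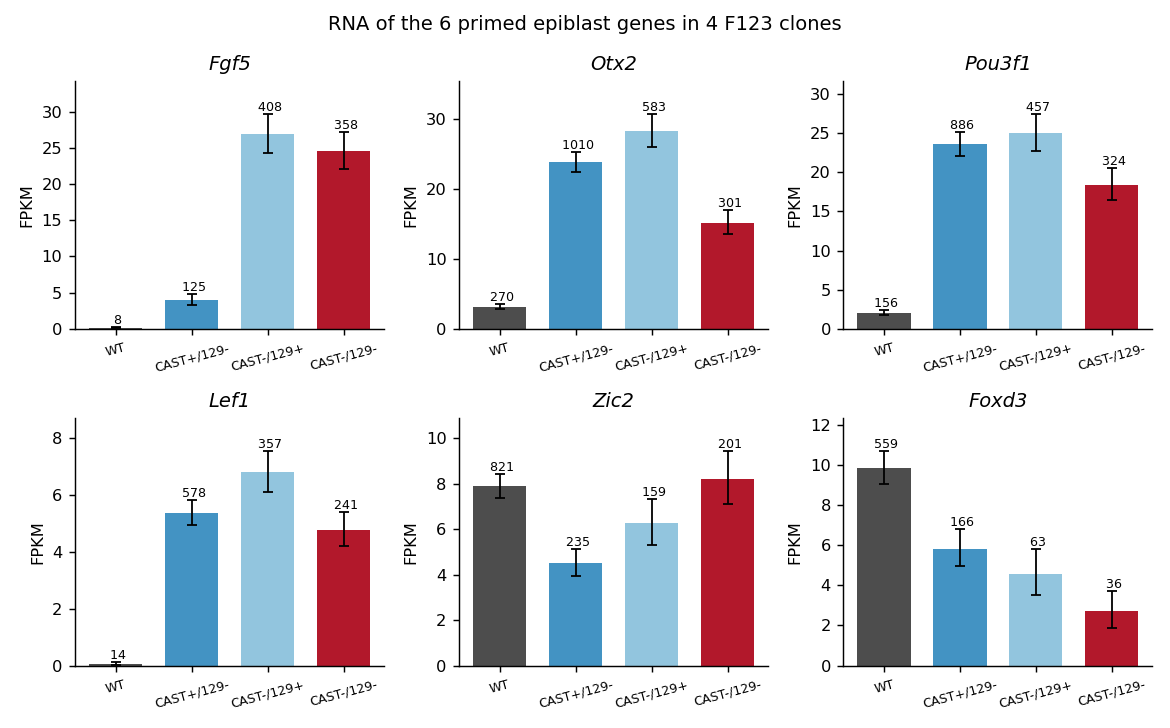
Level of each of the 6 genes (y axis, FPKM, each panel with its own scale from 0) in the 4 F123 clones, 1 library each. Error bars are exact 95% Poisson intervals and the number over each bar is its count of alignments. Fgf5, Otx2, Pou3f1 and Lef1 are lowest in WT, Foxd3 is highest there, and Zic2 is at 7.88 FPKM in WT and 8.22 in CAST-/129-.

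The order of the genes by level therefore differed between clones. In WT it was Foxd3, Zic2, Otx2, Pou3f1, and then Fgf5 and Lef1, whose intervals overlapped. In CAST+/129- Otx2 and Pou3f1 led and did not differ beyond their intervals, with Foxd3, Lef1, Zic2 and Fgf5 between 5.83 and 4.01 FPKM, each overlapping the next. In CAST-/129+ Otx2, Fgf5 and Pou3f1 led, each overlapping the next, and in CAST-/129- Fgf5 led alone. Against the 21996 protein-coding genes, Fgf5 stood above 31.3% of them in WT and above 87.0% in CAST-/129+. Foxd3 moved from above 69.5% of them in WT to above 52.5% in CAST-/129-.

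The study called a gene changed where the ratio of FPKM + 4 was past 3-fold, which is 1.58 on the log2 scale. Otx2 and Pou3f1 passed it upward in CAST+/129-, Fgf5, Otx2 and Pou3f1 in CAST-/129+, and Fgf5 and Pou3f1 in CAST-/129-. That is 2, 3 and 2 of 6 genes, beside 0.324%, 0.476% and 0.823% of the 31484 genes called up, and no member was called down, beside 0.305%, 0.327% and 0.511%. Among the 13826 genes averaging 1 FPKM or more over the 4 libraries, a group that includes all 6, 0.738%, 1.08% and 1.87% were called up. Fgf5 and Lef1, at 0.129 and 0.0650 FPKM in WT, are in this group only through the deletion clones. Every gene called up is in it as well. The group is thus not chosen independently of the changes, which also holds where its medians are given below. With 6 genes chosen with earlier results in view, these counts are a description only. The added 4 FPKM weighs most on low genes. Lef1 had log2 ratios of 1.20, 1.41 and 1.11 on this scale and passed in no clone, although it was 73.3 to 105 times as high as in WT. Over exons of coding transcripts alone its log2 ratios were 2.05, 2.32 and 1.92, all past the threshold. Fgf5 in CAST+/129- was at 0.96, Otx2 in CAST-/129- at 1.41, and Foxd3, the only member below WT in all 3 clones, reached -1.05 in CAST-/129-. Zic2 lay between -0.48 and 0.04.

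**Figure D2:**
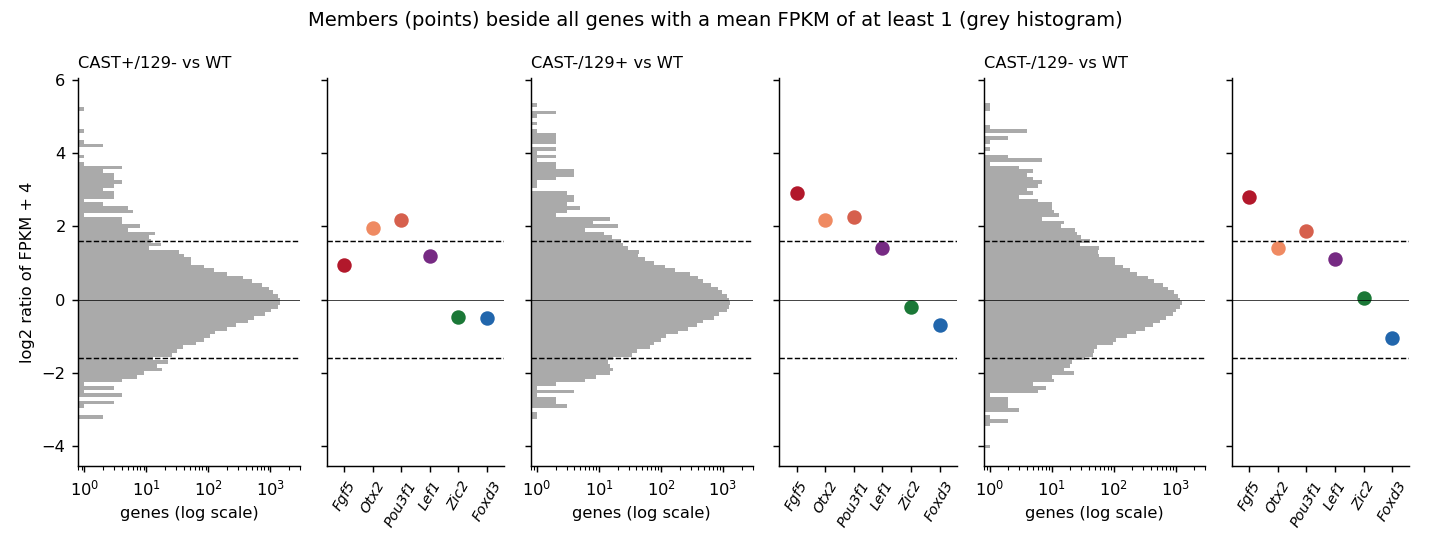
Log2 ratio of FPKM + 4 to WT (y axis) for the 6 genes (coloured points) beside the 13826 genes averaging 1 FPKM or more (grey histogram, number of genes on a log scale), for each deletion clone. Dashed lines mark 3-fold, and 2, 3 and 2 of the 6 genes lie above the upper line from left to right.

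Fibroblast markers moved with the same contrasts. Their summed level over 15 genes was 31.0 FPKM in WT, 147 in CAST+/129-, 138 in CAST-/129+ and 710 in CAST-/129-, with 4, 3 and 11 of 15 called up, and only Lum was at 0 alignments in WT. The summed level of the 6 members was 23.2, 67.1, 97.8 and 73.8 FPKM, so it was highest in CAST-/129+ and not in CAST-/129-, where the fibroblast genes were highest. The part of feeder or fibroblast-like RNA in the members' values was not tested.

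Of 21 other genes of the primed or formative epiblast, 1, 4 and 4 were called up and 0, 1 and 2 down in CAST+/129-, CAST-/129+ and CAST-/129-. Their median log2 ratio was 0.28, 0.47 and 0.48, beside medians of 1.08, 1.79 and 1.26 for the 6 members and of -0.03, -0.06 and -0.08 for the 13826 genes averaging 1 FPKM or more. Cldn6, a tight junction claudin of early epithelia, was the 1 gene called up in all 3 clones, at 15.8, 46.3 and 33.8 times its WT level of 1.76 FPKM. Fgf8, a growth factor of the gastrulating embryo, was called up in CAST-/129+ and CAST-/129-, with 0.119, 1.01, 19.5 and 21.4 FPKM. The kinase gene Pim2 was called up in the same 2 clones, at 2.66, 13.9, 30.6 and 52.9 FPKM. Wnt8a passed in CAST-/129- alone. Cdh2 (N-cadherin) passed in CAST-/129+ alone, and not there with all alignments as the library size, reads before collapsing, thinned libraries or both strands. Grhl2, an epithelial regulator, and the de novo DNA methyltransferase gene Dnmt3b were above WT in all 3 clones without passing, Dnmt3b at 47.3, 106, 142 and 106 FPKM. Dnmt3b passed in CAST-/129+ with reads before collapsing. Etv4, an ETS factor induced by FGF signalling, was called down in CAST-/129+ and CAST-/129-, at 0.208 and 0.226 times WT, and Tcf15 in CAST-/129-, at 0.218 times WT.

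Of 15 naive pluripotency genes, a list that shares Nanog and Zfp42 with the ES cell markers, 5, 6 and 11 were called down. Of the same list 1 gene, Dppa3, was called up in each clone. Klf4 was at 120 FPKM in WT, 19.2 in CAST+/129-, 13.8 in CAST-/129+ and 8.28 in CAST-/129-. Dppa3, which is also a germ cell gene, ran the other way at 6.85, 89.2, 108 and 31.1 FPKM. The median log2 ratio of the list was -1.05, -1.32 and -1.89, lowest in CAST-/129-.

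Of 13 receptors and feedback genes of the FGF pathway, the one Fgf5 signals through, none was called up and 0, 2 and 1 were called down. Etv4, already counted among the other epiblast genes, was 1 of the 2 in CAST-/129+ and the 1 in CAST-/129-. The median log2 ratios of the list were -0.21, -0.76 and -0.49. Egr1, an immediate early gene of ERK signalling, was at 13.9, 2.59, 1.22 and 2.98 FPKM and was called down in CAST-/129+. Of 13 target genes of Wnt and beta-catenin, the pathway through which Lef1 acts, 0, 1 and 3 were called up and none down, and the median log2 ratios were -0.06, 0.13 and 0.34. In CAST+/129- 9 of the 13 were below WT without passing, beside 7387 of the 13826 genes averaging 1 FPKM or more that were below WT. Among the 9 were Axin2 at 0.441, Nkd1 at 0.307, Cdx1 at 0.130 and Dkk1 at 0.0786 times WT. In CAST-/129+ and in CAST-/129-, 11 of the 13 were above WT, beside 6080 and 5994 of the 13826 genes. Dkk1 was at 4.50 and 3.93 times WT. In CAST-/129+ the intervals of Axin2, at 1.01 (0.825 to 1.22), and Nkd1, at 1.18 (0.829 to 1.66), took in equality. Some of the genes above WT in CAST-/129- had such intervals too. T (brachyury) was at 0.417, 3.15, 10.3 and 36.3 FPKM and passed in CAST-/129+ and CAST-/129-, and Wnt3 and Ccnd1 passed in CAST-/129- alone. Of the 23 relatives of the members by family, Fgf8 alone was called, in 2 clones. Otx1, Crx, Pou3f2, Pou3f3 and Pou3f4, the closest relatives of Otx2 and Pou3f1, stayed at or under 0.418 FPKM in every library. Tcf7l1, the relative of Lef1 that is known to repress in ES cells, was between 32.7 and 45.7 FPKM.

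Of 11 primitive streak markers, a list that shares T, Wnt3 and Fgf8 with those above, 0, 5 and 6 were called up, Cer1 with 0.0462, 0.138, 14.3 and 37.3 FPKM. Of 10 measured markers of neural plate and neural crest, Nes alone was called, in CAST+/129- and CAST-/129-. Nes was at 1.80, 14.3, 10.5 and 19.9 FPKM, and Hesx1, which did not pass, between 1.27 in WT and 4.91 in CAST-/129+. Pax6, Six3, Sox10 and Pax3 stayed at or under 0.364 FPKM in every library. The part of neural cells in the level of Otx2, which the neural plate also uses, was not tested.

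**Figure D3:**
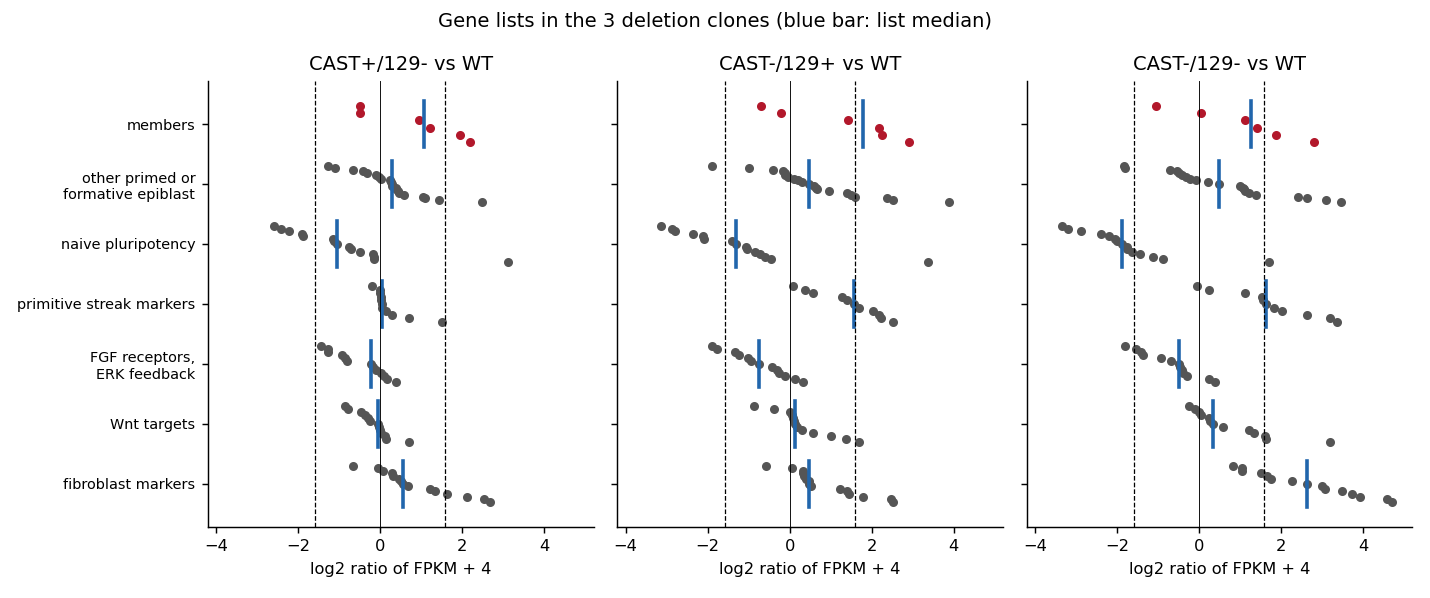
Log2 ratio of FPKM + 4 to WT (x axis) for each gene (point) of 7 lists (rows) in the 3 deletion clones. Blue bars are list medians and dashed lines mark 3-fold. The 6 members have medians of 1.08, 1.79 and 1.26, and the naive genes medians of -1.05, -1.32 and -1.89.

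Among the 12402 protein-coding genes averaging 1 FPKM or more, the genes most like each member were ranked by the distance between log2(FPKM + 1) profiles over the 4 libraries, each centred on its own mean. For Fgf5 they were Prl2c2 (distance 0.26) and Prl2c3 (0.50), near-identical prolactin family copies among which reads may be split, and no other gene lay within 0.5. For Otx2 they were Cited1 (0.18) and Bmp8b (0.20), with 14 genes within 0.5. For Pou3f1 they were 1600014K23Rik (0.22) and Eps8l2 (0.28), with 13 genes within that distance. For Lef1 1600014K23Rik was again among them (0.27), with 22. For Zic2, 1817 genes lay within 0.5, Exoc6b (0.05) and Lrp5 (0.05) being the nearest, and for Foxd3 443 did, led by Smagp (0.07) and Gm10330 (0.10). With 4 points a profile, this ranking is a description of these libraries.

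The promoters of the 6 genes in undeleted cells were read in windows of 2 kb on each side of the annotated gene start, as fold over the genome mean. No input library was among the samples, so the folds are not corrected for local background. H3K4me3 in F123 was 5.04 times the mean at Fgf5, 4.76 at Otx2, 8.68 at Pou3f1, 7.66 at Lef1, 18.8 at Zic2 and 11.4 at Foxd3. It was over 5 times the mean at 5 of 6, beside 46.6% of protein-coding promoters, with Fgf5 (3.79 to 6.58) and Otx2 (3.55 to 6.26) on either side of the threshold by less than their intervals. H3K27ac in F123 was 1.26 at Fgf5, 2.10 at Otx2, 0.421 at Pou3f1, 1.26 at Lef1, 31.6 at Zic2 and 5.05 at Foxd3. In J1 it was 1.46, 2.23, 1.80, 1.63, 8.23 and 5.23 in the same order. It was over 5 times the mean at 2 of 6 in each line, Zic2 and Foxd3, beside 28.8% of protein-coding promoters in F123 and 23% in J1.

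Zic2 and Foxd3, the highest of the 6 in WT RNA, carried both marks. The H3K27ac of Foxd3 was under the threshold in both lines with the mean of its own chromosome, and with reads before collapsing Foxd3 was under it in F123 and Zic2 in J1. Fgf5, Pou3f1 and Lef1, at 2.08 FPKM or less in WT, had H3K4me3 over 5 times the mean and H3K27ac under 5 times the mean in both lines, a state of 18.9% of protein-coding promoters. Fgf5 was under the threshold for H3K4me3 with reads before collapsing and with the mean of its own chromosome. Otx2 was under the threshold in all 3 libraries, and over it for H3K4me3 with the mean of its own chromosome. At its annotated start with the most H3K4me3, Otx2 was over the threshold for that mark too. Foxd3 in F123 rested on 12 alignments (interval 2.61 to 8.82), since the F123 H3K27ac library held 1576574 distinct alignments, or 2.38 per window at the mean. The 3 low genes held 3, 1 and 3 alignments there, so their F123 values are shallow, whereas in the deeper J1 library Fgf5, Pou3f1 and Lef1 held 17, 21 and 19. The H3K27ac alignments came from 8045615 reads in F123, and in J1 7741713 alignments came from 81263189 reads. Both libraries thus held many copies, J1 the more. Differences in H3K27ac between F123 and J1 were not tested.

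**Figure D4:**
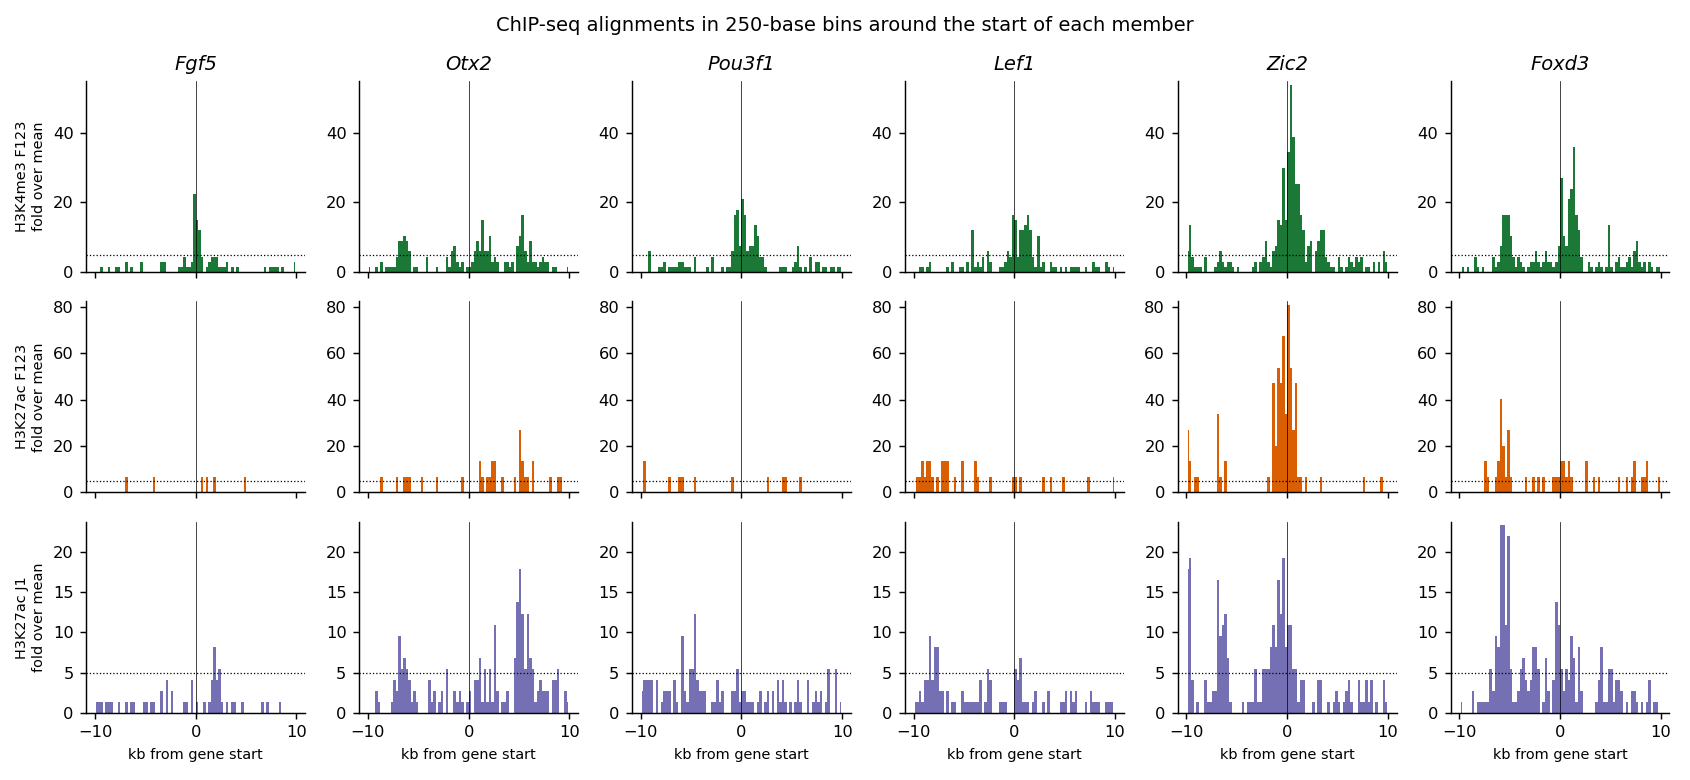
H3K4me3 in F123 (top), H3K27ac in F123 (middle) and H3K27ac in J1 (bottom) within 10 kb of each gene start, as fold over the genome mean in bins of 250 bases (y axis, 1 scale per row). The vertical line is the gene start and the dotted line is 5 times the mean. In the middle row 1 alignment in a bin is already 6.74 times the mean, so crossing the line has no meaning there. Lef1 also has bins at 6.74 beside its start in that row. Over windows of 2 kb on each side of the start, Zic2 and Foxd3 have both marks over 5 times the mean. Fgf5, Pou3f1 and Lef1 have only H3K4me3 over it.

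The weak marks at Otx2 depend on which start is read. In windows of 1 kb centred on the 5′-most start, H3K4me3, H3K27ac in F123 and H3K27ac in J1 were 1.49, 0 and 1.03 times the mean. Centred on the start 5712 bases further into the gene they were 8.58, 6.73 and 9.94. The 0 in F123 is 0 alignments in a window where 0.594 are expected at the mean, so it sets no useful limit. The 6.73 rests on 4 alignments. In windows of 2 kb on each side of the start with the most H3K4me3, the H3K27ac of Otx2 was under 5 times the mean in both lines.

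The 250 bases before the gene start, read from mm9, show how the promoters differ. Fgf5, Pou3f1 and Zic2 are shown as 3 promoters rich in CpG, with and without H3K27ac, and Otx2 as the member whose 5′-most start is poor in both marks. Capitals mark the GC box GGGCGG on either strand (as CCGCCC on the other). The regions are chr5:98682953-98683202 for Fgf5, chr4:124334639-124334888 for Pou3f1 and chr14:122874354-122874603 for Zic2, all on the plus strand, and chr14:49287320-49287569 on the minus strand for Otx2.
Fgf5: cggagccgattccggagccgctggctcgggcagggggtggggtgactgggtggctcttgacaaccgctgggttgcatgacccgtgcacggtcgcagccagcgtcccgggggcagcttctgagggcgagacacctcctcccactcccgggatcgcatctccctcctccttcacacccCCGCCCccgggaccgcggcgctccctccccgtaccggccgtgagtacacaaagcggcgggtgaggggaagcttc
Pou3f1: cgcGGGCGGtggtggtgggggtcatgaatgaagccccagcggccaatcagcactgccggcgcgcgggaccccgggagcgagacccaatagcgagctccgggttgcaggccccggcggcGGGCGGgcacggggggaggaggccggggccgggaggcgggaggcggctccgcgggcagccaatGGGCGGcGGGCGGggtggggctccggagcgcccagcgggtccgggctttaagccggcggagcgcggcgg
Zic2: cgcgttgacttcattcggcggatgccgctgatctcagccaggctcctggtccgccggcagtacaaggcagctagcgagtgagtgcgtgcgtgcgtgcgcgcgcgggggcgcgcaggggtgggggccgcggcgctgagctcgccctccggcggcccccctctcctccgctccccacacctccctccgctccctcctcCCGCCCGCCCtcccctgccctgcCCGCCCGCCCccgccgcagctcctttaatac
Otx2: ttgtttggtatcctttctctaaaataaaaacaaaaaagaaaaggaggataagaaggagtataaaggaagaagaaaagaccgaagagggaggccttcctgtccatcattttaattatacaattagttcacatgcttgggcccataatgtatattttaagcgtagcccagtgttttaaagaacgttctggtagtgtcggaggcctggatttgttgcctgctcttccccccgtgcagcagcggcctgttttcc

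The G+C content was 70.8% at Fgf5, 79.2% at Pou3f1, 74.8% at Zic2 and 42.0% at Otx2, with 71.2% at Lef1 and 65.6% at Foxd3, beside a median of 54.4% over 21979 protein-coding promoters. CpG was at 0.767, 0.954, 0.923 and 0.550 of the number expected from the base composition at Fgf5, Pou3f1, Zic2 and Otx2, and at 0.838 and 0.854 at Lef1 and Foxd3, beside a median of 0.504. Pou3f1 had 4 GC boxes, Zic2 had 4 in overlapping pairs, Fgf5 and Lef1 had 1 each, and Otx2 and Foxd3 had none, while 40.0% of all promoters of this length held at least 1. The Sox motif CATTGT, the octamer ATGCAAA, the OTX motif TAATCC and the TCF/LEF motif CTTTGAT, on either strand, were in none of the 6 windows. These letters are in 9.12%, 3.88%, 6.43% and 3.03% of all such promoters, so most promoters lack them too.

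Over the wider loci, H3K27ac was read in 200 bins of 1 kb within 100 kb of each start, the promoter included. At the depth of the F123 library, 5 times the mean is 3 alignments in a bin. Fgf5 had no bin over 5 times the mean in F123 or in J1, a state shared by 9.23% of protein-coding genes. The other 5 genes had between 16 and 25 such bins in F123 and between 3 and 22 in J1, beside medians of 11 and 5 over protein-coding genes. Beyond 2 kb from the start they had between 16 and 24 in F123 and between 3 and 22 in J1. Bins at the starts of other genes were counted too. At Zic2 the bin 11000 bases upstream lies beside the start of its relative Zic5. In F123 it was at 49.7 times the mean in H3K4me3 and 60.6 in H3K27ac. At Otx2 the highest bin lay 12000 bases past the start, beyond the 3′ end of the gene, at 75.8 times the mean in F123 (55.3 to 101) and 71.7 in J1 (62.3 to 82.1). At Zic2 it lay 60000 bases upstream, at 111 times the mean in F123 (86.0 to 141) and 46.0 in J1 (38.5 to 54.4), with the start of Gm5089 nearer, at 35234 bases. Foxd3 had 23.6 and 19.9 times the mean 6000 bases upstream, where the start of Gm12688 was nearer, at 4185 bases. At Pou3f1 the highest bin, 51000 bases downstream, was at 18.5 and 33.6 times the mean and lay nearer to Sf3a3. At Lef1 an intronic bin 61000 bases into the gene was at 13.5 times the mean in F123, from 8 alignments, and at 1.71 in J1. Which gene any of these bins acts on was not tested.

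**Figure D5:**
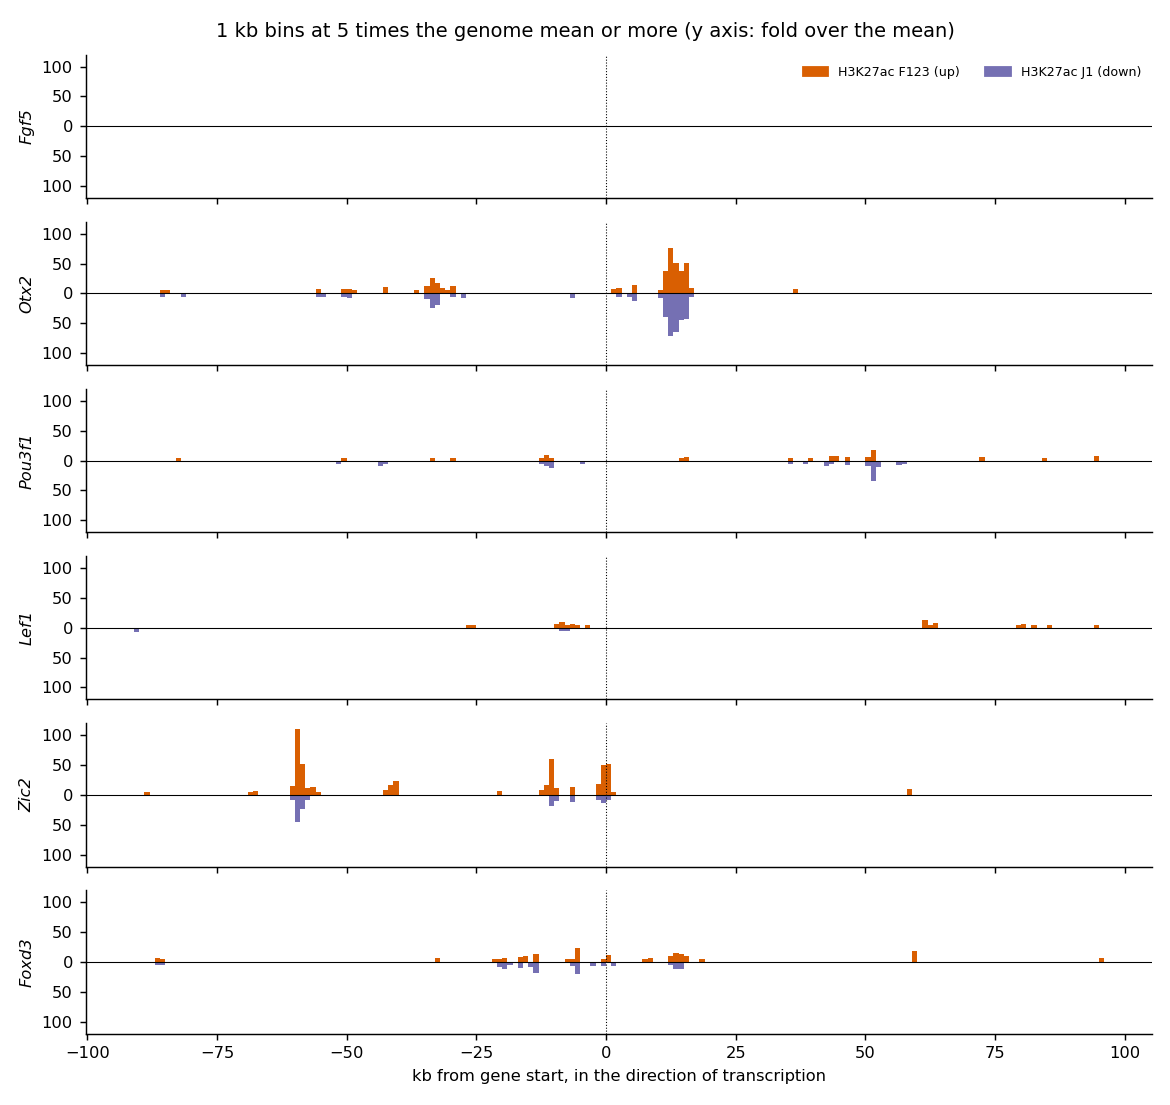
Bins of 1 kb at 5 times the genome mean of H3K27ac or more within 100 kb of each gene start, as fold over the mean, for F123 (orange, upward) and J1 (purple, downward), with the x axis in the direction of transcription. Fgf5 has none, Otx2 has a block past its 3′ end that reaches 75.8 and 71.7 times the mean, and Zic2 has one upstream that reaches 111 and 46.0.

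The central 300 bases of the highest bins at Otx2 and Zic2 are given because they are the strongest acetylated sites near any of the 6 genes and are present in both lines. The first is chr14:49274670-49274969 and the second chr14:122814954-122815253, both printed from the plus strand of mm9. Capitals mark the GC box GGGCGG in the first and the TCF/LEF motif CTTTGAT in the second.
Site downstream of Otx2: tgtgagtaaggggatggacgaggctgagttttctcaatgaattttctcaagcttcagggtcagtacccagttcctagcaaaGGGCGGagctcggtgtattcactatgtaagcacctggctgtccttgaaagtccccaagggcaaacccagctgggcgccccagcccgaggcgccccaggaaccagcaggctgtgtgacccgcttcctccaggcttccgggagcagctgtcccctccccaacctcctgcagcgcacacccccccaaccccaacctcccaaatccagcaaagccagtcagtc
Site upstream of Zic2: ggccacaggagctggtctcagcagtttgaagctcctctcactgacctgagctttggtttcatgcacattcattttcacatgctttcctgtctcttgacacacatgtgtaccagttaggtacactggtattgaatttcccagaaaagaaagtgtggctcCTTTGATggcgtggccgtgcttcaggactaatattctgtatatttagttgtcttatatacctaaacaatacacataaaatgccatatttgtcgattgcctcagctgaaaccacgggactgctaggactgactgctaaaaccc

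Of the 5 motifs, the site downstream of Otx2 held the GC box and the site upstream of Zic2 the TCF/LEF motif. Among 81682 windows of 300 bases taken from the centres of F123 H3K27ac bins over 5 times the mean and away from annotated starts, 7.23% held the GC box and 4.49% the TCF/LEF motif. Their G+C content was 59.7% and 44.0%, and CpG was at 0.346 and 0.277 of expectation, lower than in any of the 6 promoters.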

How the data were processed

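The authors captured polyA+ RNA, made strand-specific libraries and mapped the reads to mm9 with Novoalign, and mapped ChIP-seq reads to mm9 with Bowtie. Versions were not given in the sources used here. The deposited files list each distinct alignment with its count of reads, and the line strand of RNA is opposite to the transcript. From these, distinct alignments with their centre in exons of GENCODE M1 genes were counted, with bases shared by genes left out and 179 entries merged with a same-named overlapping gene. FPKM used alignments on genes as the library size, and calls used a pseudo-value of 4 and 3-fold. ChIP-seq alignments were counted by their 5′ ends. Between 1576574 and 7741713 distinct alignments stood behind each ChIP-seq library. Annotated introns of Fgf5, Lef1 and Zic2 held 0 alignments in all 4 libraries and those of Otx2 between 4 and 54. Whether the mapping left intronic reads out was not given in the sources used here, so no intronic level is reported. The calls were tested on simulated data: of 100 genes raised and 100 lowered 6-fold among 31484, in CAST-/129- against WT, 100 and 98 were recovered. These genes had 20 FPKM or more in WT, where a 6-fold change passes the call by arithmetic apart from counting error. The recovery thus checks the calling step only. All 6 members were at 9.84 FPKM or less in WT, so none of them was covered. Genes named are the 6 members, listed genes past 3-fold in any clone or at the end of a list, the 2 genes most alike (1 of which is not reported here) and neighbours within 5 kb; Grhl2, Dnmt3b, Otx1, Crx, Pou3f2, Pou3f3, Pou3f4, Tcf7l1, Pax6, Six3, Sox10, Hesx1, Pax3, Axin2, Nkd1, Cdx1, Dkk1, Gm5089, Pou5f1 and Sf3a3 were named after their values were seen. Zic5 was also named after its values were seen. The members, lists and tests were chosen with earlier results of these data known. Alternatives covered the library size, collapsing, strand, annotation, pseudo-value, thresholds and windows. Python 3.11.15, pandas 2.3.3 and scipy 1.17.1 were used.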

Additional observations from a re-analysis of the deposited data

How the results depend on the processing

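No paired analysis was possible because each genotype had 1 library. Of 144 recomputed member ratios, 1 changed sides of equality, Zic2 in CAST-/129+, at 103% of WT with reads before collapsing, and none of the called ones did. Fgf5, Otx2, Pou3f1 and Lef1 stayed above WT and Foxd3 below it in each clone under each of these alternatives, but the sizes moved. With reads before collapsing every member ratio to WT was higher than in the main setting, by between 1.09 and 2.12 times. WT held 2.58 reads per alignment, and CAST+/129-, CAST-/129+ and CAST-/129- held 2.02, 2.03 and 1.84. The main ratios are thus the lower ones of these 2 ways of counting. Of the 144 ratios, 15 left the counting interval (6 of Otx2, 6 of Pou3f1, 2 of Zic2 and 1 of Foxd3), and 19 moved by over 1.5 times (6 of Fgf5, 5 of Pou3f1 and 8 of Lef1), with reads before collapsing, thinned libraries or both strands. Over all alternatives Fgf5 ran up to 54.0, 413 and 405 times WT and Pou3f1 up to 17.9, 18.8 and 14.1. The 54.0 of Fgf5 and the values of Pou3f1 are those of the random thinning draw. The counts of called genes depend most on the pseudo-value and threshold. With 1 in place of 4, the members called in CAST+/129- and CAST-/129- became 4 and 4, Lef1 among them, and the other epiblast genes 3 and 10. Of the 10, 8 were up and 2 down. The genes called up rose from 0.324% and 0.823% to 0.915% and 2.23% of all, and those called down from 96 and 161 to 347 and 565 genes. With 10, the members became 0, 1 and 1 in CAST+/129-, CAST-/129+ and CAST-/129-, and the other epiblast genes 2 in CAST-/129+, beside 0.159%, 0.238% and 0.381% of all genes called up. At 2-fold, 5 members were past the threshold in CAST-/129-, Foxd3 downward, and 6 and 11 other epiblast genes in CAST+/129- and CAST-/129-, beside 286 up and 402 down and 629 up and 604 down of the 31484 genes. With exons of coding transcripts only, chosen after seeing the data, 3, 4 and 3 members were called up in CAST+/129-, CAST-/129+ and CAST-/129-, Lef1 in each. Of the other epiblast genes, 2, 4 and 5 were called up and 0, 1 and 2 down. Among all 31501 genes at this setting, 0.352%, 0.527% and 0.863% were called up, and 105, 110 and 171 genes were called down. Counting copies shifted by 2 bases once, also chosen after seeing the data, left the counts of members and of other epiblast genes as in the main setting. Of the promoters, H3K27ac was over the threshold at 1 of 6 in F123 and 1 in J1, both with the mean of the own chromosome (Zic2 in both) and with reads before collapsing (Zic2 in F123, Foxd3 in J1). The shares of protein-coding promoters were 27.8% and 21.9% with the former, and 28.2% and 20.8% with the latter. For H3K4me3 the latter left 4, without Fgf5, beside 45.6%. The former left 5, with Otx2 in place of Fgf5, beside 46.1%. At the annotated start with the most H3K4me3, 6, 2 and 2 of 6 were over the threshold for H3K4me3 in F123, H3K27ac in F123 and H3K27ac in J1. The shares there were 49%, 29.9% and 23.9%. At 10 times the mean, 2, 1 and 0 of 6 remained for H3K4me3 in F123, H3K27ac in F123 and H3K27ac in J1, beside 27%, 17% and 9.4% of protein-coding promoters. The cause of these moves was not tested, except where it follows by construction. A pseudo-value lowers the ratio of low genes. Thinning was 1 random draw that leaves the expected ratio unchanged, so it adds sampling error. The ratios of the deletion clones share the part of that error that comes from WT. Depth limits H3K27ac in F123 most, and Fgf5 and Lef1 in WT rest on 8 and 14 alignments.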
